A study of Mus musculus with 230 samples.

Results

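Cadherins and protocadherins are calcium-dependent adhesion proteins of the cell surface, and 85 of their genes were described here across 6 regions of the mouse brain. The members were chosen by measured level: protein-coding genes whose symbols start with Cdh or Pcdh followed by a number, or by a, b or g for the clustered protocadherins, with a mean of at least 0.5 CPM, which are read counts scaled to the size of the library, in 1 or more regions of the S24 mice defined below. Cdh5, a gene of blood vessels, was left out. The table held 93 genes of these names among 43346, and 91 were protein-coding genes other than Cdh5. The 85 members comprised 5 classical type I cadherins, 12 type II cadherins, 3 other cadherins (Cdh13, Cdh23 and Cdh26), 11 non-clustered protocadherins, and 12, 22 and 20 genes of the alpha, beta and gamma clusters of protocadherins.

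The 230 libraries came from 45 male C57BL/6J mice that self-administered saline or cocaine. Tissue was taken 24 h into withdrawal with no further injection, from 8 mice each after saline (S24) and cocaine (C24), or after 30 d, with an injection 1 h before. In these later groups the first letter is the self-administered solution and the second the injection, saline or cocaine: SS had 8 mice, SC 8, CS 6 and CC 7. The regions were the basolateral amygdala (BLA), dorsal striatum (CPu), nucleus accumbens (NAc), prefrontal cortex (PFC), ventral hippocampus (vHipp) and ventral tegmental area (VTA), with 3 to 8 libraries a group and 1 library per mouse and region. All groups share the strain, the sex and a history of self-administration, and the labels give no age.

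Library totals ran from 11866570 to 42135683 counts. Summed dopamine neuron markers had a median of 3889 CPM in the VTA of SS mice and medians of at most 35.3 CPM elsewhere, and striatal projection neuron markers had medians of 8001 CPM (CPu) and 4058 CPM (NAc). In the BLA of SS mice the striatal markers ran from 290.8 to 1784 CPM with a median of 1024, against a median of 298 CPM in S24 mice, and in the PFC they reached 881 CPM. The part of such striatal RNA in the BLA and PFC values of members was not tested. Markers of cortical and hippocampal glutamatergic neurons had medians of 1931, 1503 and 707 CPM in the PFC, vHipp and BLA, and of at most 14.5 CPM in the other regions. By the marker lists, 25 of the 230 libraries stood apart from their region, none of them from SS mice. In 21 libraries, 19 of them from SC mice, the predicted gene Gm20594 was over 1 CPM, and 4 of the 21 were also among the 25.

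Classical cadherins bind the same cadherin on a facing cell and are tied to actin inside the cell by catenins, and type II cadherins pair mostly among themselves. Clustered protocadherins lie in tandem arrays of variable exons, each with its own promoter. A neuron expresses a small set of them, which gives it a surface identity used in self-avoidance of dendrites and axons. Alpha and gamma genes splice their variable exon to constant exons that all genes of the cluster share, and beta genes have no such constant exons. Non-clustered protocadherins act in axon growth, synapse turnover and cell sorting.

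Promoters are shown for 3 non-clustered protocadherins that were high in the vHipp and low in the CPu, Pcdh20, Pcdh19 and Pcdh8, and for 2 type II cadherins that were high in the VTA, Cdh20 and Cdh24. Of the 85 members, 22 matched a promoter entry in RefSeq (build GRCm38.p6). The windows are the 250 bases before the start, read 5′ to 3′ on the gene's strand, at chr14:88471397-88471646 for Pcdh20, chrX:133688994-133689243 for Pcdh19, chr14:79771313-79771562 for Pcdh8, chr1:104768270-104768519 for Cdh20 and chr14:54641365-54641614 for Cdh24. Cdh20 lies on the plus strand and the others on the minus strand. Capitals mark CCAAT boxes (CCAAT or ATTGG), GC boxes (GGGCGG or CCGCCC) and TATA boxes (TATAAA or TTTATA), found on both strands.

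Pcdh20: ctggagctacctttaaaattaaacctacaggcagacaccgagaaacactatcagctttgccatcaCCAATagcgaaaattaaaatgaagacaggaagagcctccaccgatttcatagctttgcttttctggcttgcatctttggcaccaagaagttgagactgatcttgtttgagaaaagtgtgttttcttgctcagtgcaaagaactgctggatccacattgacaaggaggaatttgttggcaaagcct
Pcdh19: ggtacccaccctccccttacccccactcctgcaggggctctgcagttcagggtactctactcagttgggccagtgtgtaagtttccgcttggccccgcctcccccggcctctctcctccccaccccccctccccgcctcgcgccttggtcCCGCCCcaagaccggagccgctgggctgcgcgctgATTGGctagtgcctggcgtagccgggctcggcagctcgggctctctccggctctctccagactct
Pcdh8: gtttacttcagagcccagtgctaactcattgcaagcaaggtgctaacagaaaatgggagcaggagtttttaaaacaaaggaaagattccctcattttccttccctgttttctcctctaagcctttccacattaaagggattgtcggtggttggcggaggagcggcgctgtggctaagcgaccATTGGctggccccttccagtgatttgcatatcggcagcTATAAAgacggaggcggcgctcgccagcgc
Cdh20: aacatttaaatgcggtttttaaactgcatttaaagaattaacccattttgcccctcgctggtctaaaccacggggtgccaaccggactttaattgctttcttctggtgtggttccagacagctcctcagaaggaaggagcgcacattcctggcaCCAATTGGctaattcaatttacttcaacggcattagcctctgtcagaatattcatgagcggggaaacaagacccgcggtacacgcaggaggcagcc
Cdh24: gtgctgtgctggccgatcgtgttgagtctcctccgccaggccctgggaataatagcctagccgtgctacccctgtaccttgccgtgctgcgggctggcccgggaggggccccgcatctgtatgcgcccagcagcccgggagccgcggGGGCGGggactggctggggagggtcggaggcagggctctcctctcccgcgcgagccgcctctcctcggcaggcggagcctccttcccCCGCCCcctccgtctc

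The motifs were picked after the sequences were seen, and matches are a description. A CCAAT box stood in the windows of Pcdh20, Pcdh19, Pcdh8 and Cdh20, where both strands match in overlap, and in 33.8% of all 32851 windows of the same length. The window of Pcdh8 held 1 TATA box, which 12.4% of all windows did. GC boxes were found in Pcdh19 (1 match) and Cdh24 (2 matches) and in 32.7% of all windows. None of the 5 windows held the half-site of the cyclic AMP response element, TGACG or CGTCA, which 17.8% of all windows did. Among all 25 windows of members, some from the same gene, 4 held this half-site. A CCAAT box stood in 15 of the 25, a GC box in 9 and a TATA box in 2. The GC content of the windows was 42.4% for Pcdh20, 69.2% for Pcdh19, 51.2% for Pcdh8, 47.6% for Cdh20 and 72.8% for Cdh24.

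Levels in the S24 mice, which chose the members, are given as a description. Per kb of exon not shared with another gene, averaged over the 6 regions, the non-clustered protocadherins had the highest median of the subgroups, 9.67 CPM per kb. The gamma cluster had 4.32, the type II cadherins 3.97, the beta cluster 1.41 and the alpha cluster 1.04 CPM per kb. Pcdh1 led all members at 27.3 CPM per kb and was highest in the vHipp (419 CPM) and lowest in the VTA (93.8 CPM). Pcdh9 (16.6 CPM per kb) was highest in the VTA at 206.5 CPM, and Pcdh10 (14.9 CPM per kb), a protocadherin tied to the loss of synapses, was highest in the NAc at 302 CPM.

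In the gamma cluster Pcdhgc5 had the highest level, 16.8 CPM per kb, followed by Pcdhgc3 at 13.97 and Pcdhga11 at 6.40 CPM per kb. Pcdhac2 led the alpha cluster at 8.99 CPM per kb, with Pcdha12 at 2.30 and Pcdha9 at 1.496. Beta members ran from Pcdhb1 at 0.143 to Pcdhb9 at 4.34 CPM per kb, with Pcdhb20 at 3.61 and Pcdhb17 at 3.49. Cdh2, the N-cadherin of synapses, led the type I cadherins at 10.8 CPM per kb, above Cdh4 (R-cadherin) at 5.46 and Cdh15 (M-cadherin) at 0.981. Among type II cadherins Cdh22, Cdh8 and Cdh9 had 8.93, 8.78 and 8.16 CPM per kb. Cdh13, which has no cytoplasmic domain and is held by a lipid anchor, had 10.7 CPM per kb, against 0.222 for Cdh23 and 0.102 for Cdh26.

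Just inside the threshold lay Pcdha8, at 0.513 CPM in its highest region, Cdh26 at 0.629 and Cdh1 at 1.047 CPM. Just outside lay Pcdh12 at 0.406, Cdh17 at 0.243 and Pcdha4 at 0.139 CPM. Only 404 of the 5768 exon bases of Pcdha4 are not shared with another gene, and Pcdhga10, whose 4732 exon bases are all shared, was listed at 0 in every library. Values for alpha and gamma members rest on the unshared exons, a median of 46.4% of their exon length in the alpha and 54.8% in the gamma cluster.

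By position, 56 of the 85 members lie on chromosome 18, where the 3 clusters follow each other. The alpha members span 36930184 to 37187661, the beta members 37264938 to 37524479 and the gamma members 37661793 to 37841873 (GRCm38). Chromosome 8 holds 6 members, and chromosomes 14 and 15 hold 5 each. The neighbours Cdh20, Cdh7 and Cdh19 on chromosome 1 were highest in the VTA, the NAc and the VTA of S24 mice. The region with the highest mean was the same in all 6 conditions for 46 of the 85 members, and the region with the lowest for 41.

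Regions were then compared in the 39 SS libraries, from mice that did not choose the members. Each region was tested against the mean of the other 5 with edgeR's quasi-likelihood test, and a member was called at an adjusted p under 0.05 over 17112 genes. Of the 85 members, 83 passed the filter on low counts, and Cdh3 and Cdh26 did not. In the BLA, 17 members were called higher and 16 lower, beside 18.3% and 12.1% of all genes. In the CPu 38 were higher and 25 lower (27.9% and 29.3% of all genes), and in the NAc 37 were higher and 14 lower (22.6% and 21.5%). In the PFC 25 were higher and 27 lower (22.8% and 19.8%), in the vHipp 18 and 30 (25.8% and 22%), and in the VTA 22 and 37 (32.7% and 35.1%). Many genes of the table thus differed between these tissues, and the counts given below for subgroups are to be read against these shares. Of the 83 members, a larger share than of all genes was called higher in the CPu, NAc and PFC and lower in the BLA, PFC, vHipp and VTA, and the other shares were near or below those of all genes. In tissue samples, fewer cells of a type and less RNA per cell cannot be told apart.

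The calls came to 306 pairs of a member and a region over 82 members. In the SC, CS and CC mice, fitted with the condition as a term, 305 of the 306 had the same direction and 289 were also called. The matching share over all genes was not computed, so these counts show no trait particular to the members. With the SC, CS and CC libraries, more in number than those of SS, the members called lower came to 35 in the BLA, 24 in the NAc and 42 in the PFC, beside 23.5%, 32.2% and 31.5% of all genes.

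**Figure D1:**
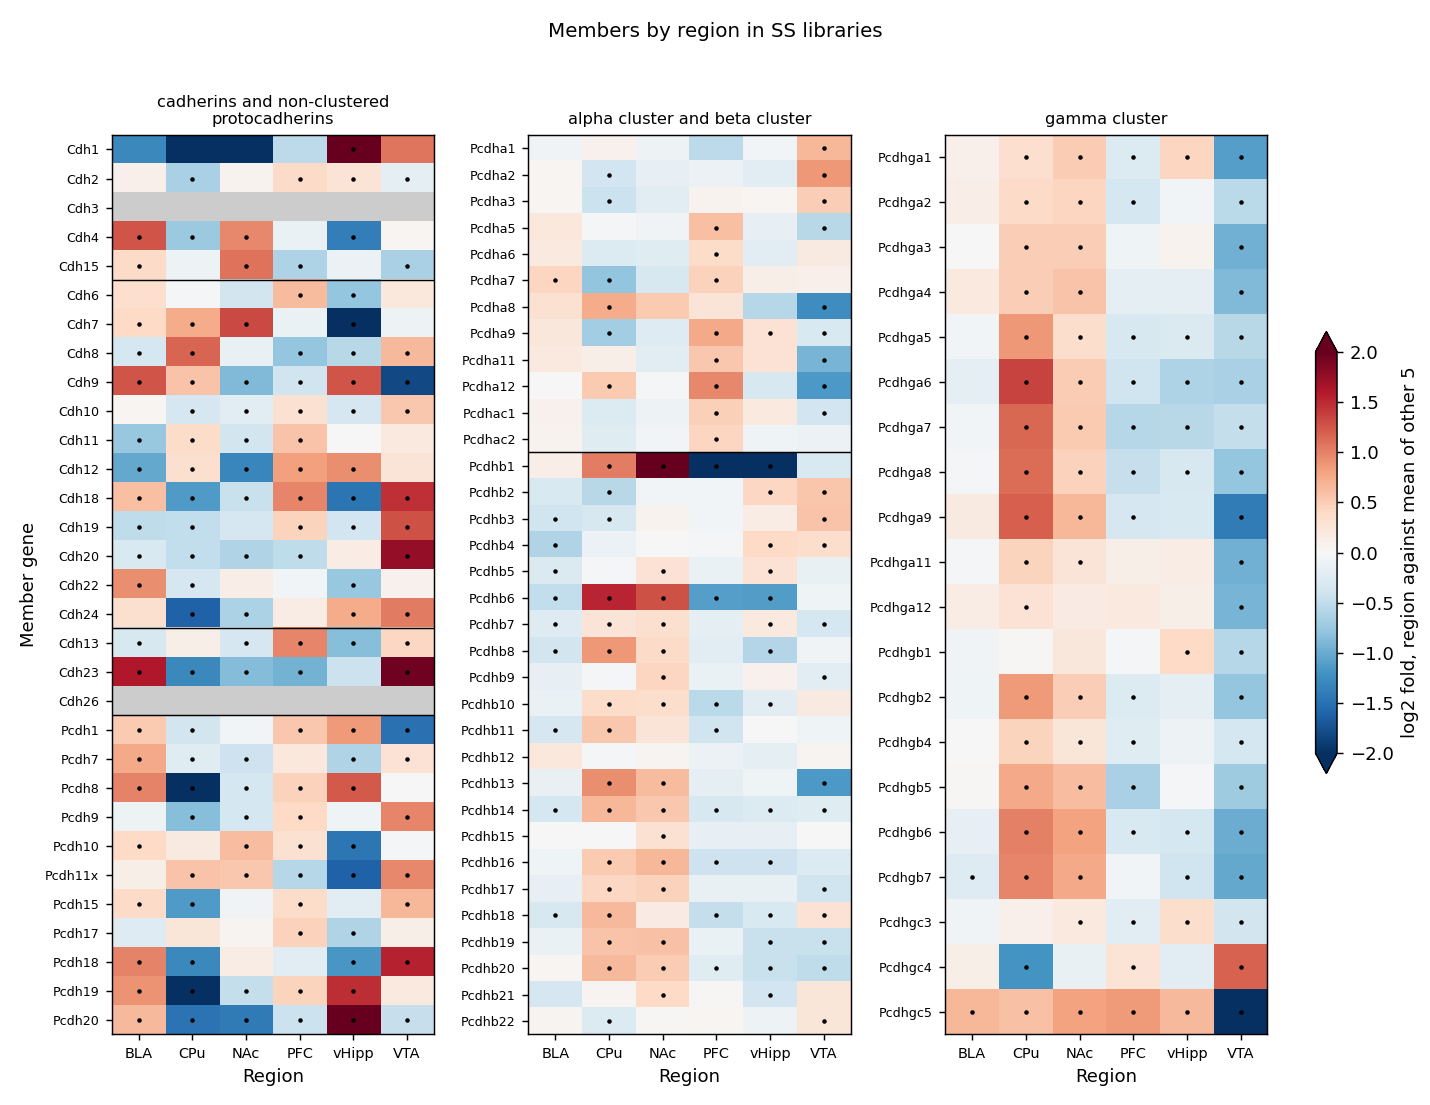
Log2 fold change of each member (rows) in each region (columns) against the mean of the other 5 regions in SS libraries, with colour from -2 (blue) to 2 (red), dots for calls at an adjusted p under 0.05, and grey for the members not tested. Most gamma members are red in the CPu and NAc columns, and all but Pcdhgc4 are blue in the VTA column.

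Gamma cluster genes were higher in both striatal regions and lower in the VTA. In the CPu 17 of 20 gamma members were higher and 1 lower, in the NAc 17 were higher and 0 lower, and in the VTA 1 was higher and 19 lower, with median log2 fold changes of 0.55, 0.49 and -0.77. In the PFC 12 of 20 were lower and 2 higher. The summed gamma level was 379 ± 61.4 CPM (SD, n = 7) in the CPu, 354 ± 34.98 (n = 6) in the NAc and 163 ± 10.6 (n = 6) in the VTA, and between 283 and 291 CPM in the other regions. Without the 3 C-type genes, the gamma A and B genes summed to 254 ± 41.0 CPM in the CPu, against 103 ± 8.68 CPM in the VTA.

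The largest of these differences was that of Pcdhgc5, the last gene of the cluster and a C-type isoform, expressed at high level in the adult forebrain. Its 6 VTA libraries held 9.39, 9.31, 8.19, 7.17, 8.64 and 6.83 CPM. In the other regions the lowest of 33 libraries held 50.6 CPM and the highest 134 CPM, so the groups did not overlap. Its log2 fold change in the VTA was -3.55 ± 0.14 (SE, edgeR adjusted p = 6.32e-24), and -3.29 in the other mice. Pcdhgc5 was called higher in each of the other 5 regions, since the VTA enters their reference. In S24 mice the means were 8.72 CPM in the VTA and 64.4 to 100.4 CPM elsewhere.

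Pcdhgc4, the C-type gene next to it and the isoform reported as needed for the survival of interneurons, went the other way. It was singled out after its values were seen. Its VTA libraries held 31.1, 27.0, 32.1, 28.5, 29.4 and 32.2 CPM, above the highest value of any other region, 22.04 CPM in a PFC library. The CPu was lowest, with 6.44 to 8.85 CPM. Against the other regions it was at 1.18 ± 0.10 on the log2 scale in the VTA (edgeR adjusted p = 4.94e-13) and -1.19 ± 0.12 in the CPu (adjusted p = 2.31e-11). As a share of gamma counts, Pcdhgc5 took 5.07% ± 0.506 in the VTA and 23.3% to 36.5% in the other regions, and Pcdhgc4 took 18.6% ± 2.01 and 2.03% to 6.23%. Pcdhgc3, the C-type gene found in most cell types, took 13.4% ± 1.23 in the VTA, 11.4% ± 0.819 in the vHipp and 7.46% in the CPu. In S24 mice its share was 12.9% ± 1.52 in the BLA and 12.75% ± 0.738 in the VTA.

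Among A and B genes of the gamma cluster, Pcdhga6, Pcdhga9, Pcdhga7, Pcdhga8 and Pcdhgb6 rose by over 1 on the log2 scale in the CPu, at 1.35, 1.198, 1.14, 1.11 and 1.01, and the first 2 are given in full. Pcdhga6 held 24.3 to 46.9 CPM there, with a median of 34.6, which overlapped the 8.86 to 26.0 CPM of the other regions (log2 fold change 1.35 ± 0.09, edgeR adjusted p = 2.01e-16). Pcdhga9 held 12.3 to 22.4 CPM in the CPu with a median of 18.98, which overlapped the 3.21 to 17.4 CPM of the other regions (1.198 ± 0.12, adjusted p = 4.27e-11). In the VTA Pcdhga9 held 3.21 to 4.69 CPM (-1.41 ± 0.16, adjusted p = 5.25e-10).

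**Figure D2:**
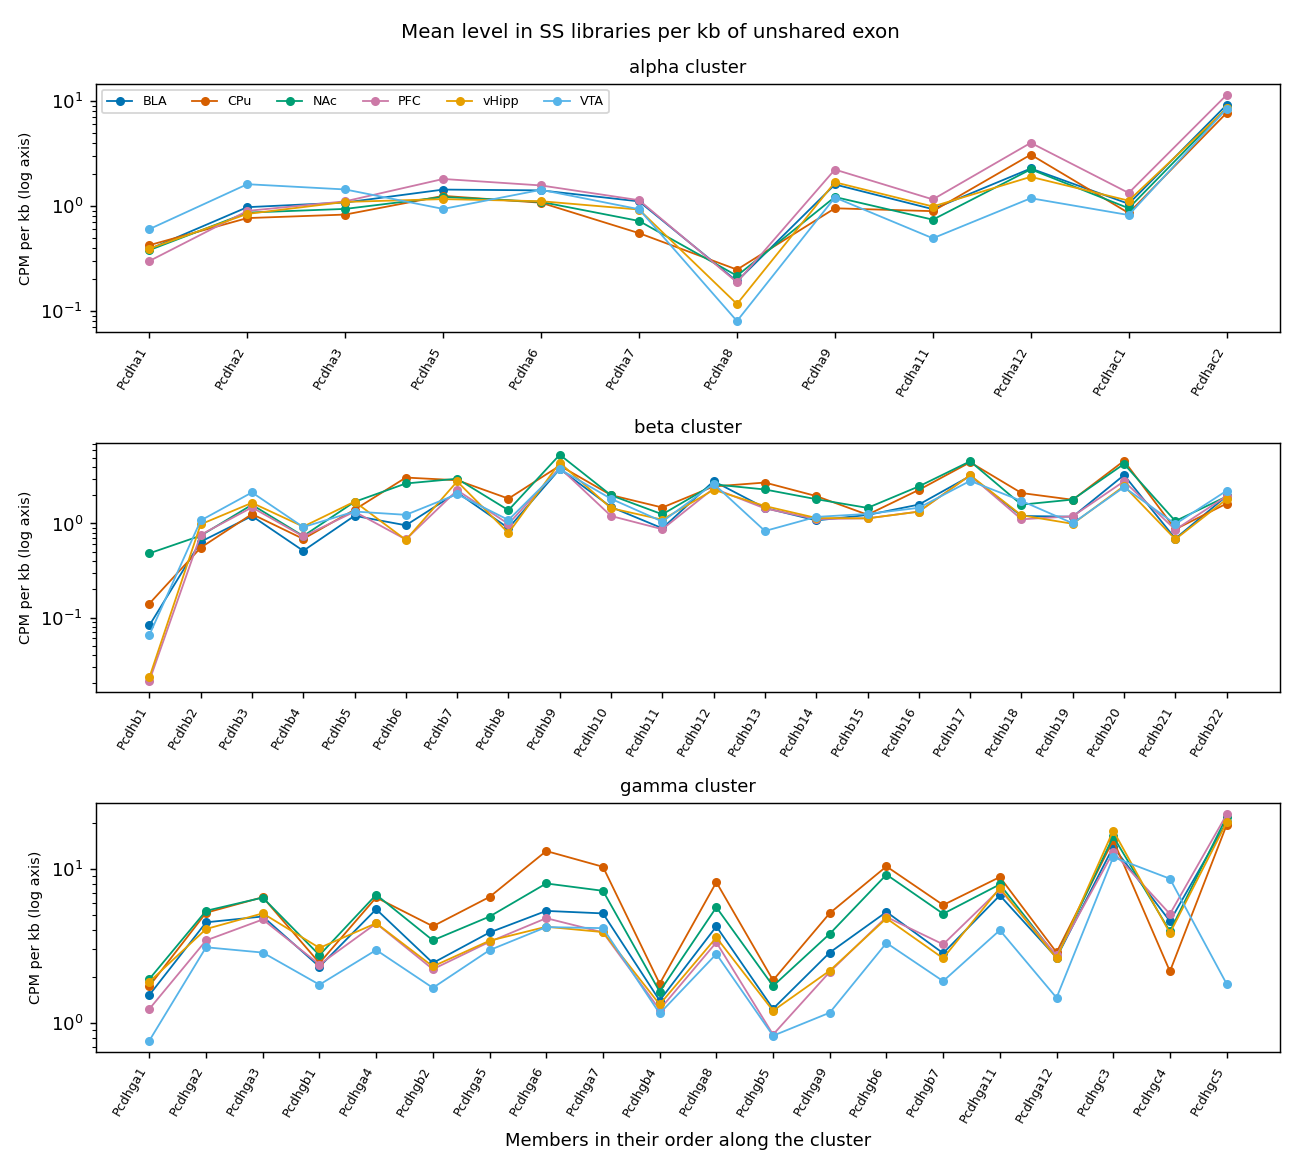
Mean level in SS libraries, in CPM per kb of unshared exon on a log axis, of the alpha, beta and gamma members in their order along each cluster, with 1 line per region. The VTA line drops at Pcdhgc5 and rises above the others at Pcdhgc4, the CPu and NAc lines lie highest over most gamma A and B genes, and all regions share peaks at Pcdhac2, Pcdhb9 and Pcdhgc3.

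Beta cluster genes shared the striatal pattern. In the CPu 13 of 22 were higher and 3 lower, and in the NAc 15 were higher and 0 lower, while 9 were lower in the BLA, 8 in the PFC and 10 in the vHipp, with 0, 0 and 4 higher there. The summed beta level was 187 ± 19.4 CPM (CPu, n = 7) and 189 ± 8.38 CPM (NAc, n = 6) in the striatal regions, against 131 to 140 CPM in the other 4 regions. Pcdhb6 held 9.44 to 14.05 CPM in the CPu with a median of 10.97, 6.97 to 13.1 CPM in the NAc with a median of 10.1, and at most 5.51 CPM in every other library, so both striatal groups lay above all others. Its log2 fold change was 1.53 ± 0.10 in the CPu (edgeR adjusted p = 7.91e-16), 1.27 ± 0.11 in the NAc and -1.11 ± 0.13 in the PFC.

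Pcdhb1, the first beta gene, was highest in the NAc, at a low level. The 6 NAc libraries held 2.50, 1.15, 0.871, 0.749, 0.837 and 1.38 CPM, and the highest other library held 0.506 CPM. The log2 fold change was 3.14 ± 0.29 in the NAc (edgeR adjusted p = 1.24e-11) and 2.57 in the other mice. With levels this low elsewhere, Pcdhb1 passed the filter on low counts mainly through its NAc libraries. Its NAc difference is therefore a description and not an independent test. The log2 fold change was -1.99 ± 0.49 in the PFC and -1.99 ± 0.55 in the vHipp. Levels in these regions were at most 0.180 CPM, and the values in the other mice were nearer to 0, at -1.15 and -1.17.

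Alpha cluster genes were higher in the PFC, with 8 of 12 called higher and 0 lower. In the NAc 0 of 12 were called in either direction, in the VTA 3 were higher and 6 lower, and in the CPu 2 and 4. The summed alpha level was 70.1 ± 17.4 CPM (n = 7) in the PFC and 48.0 to 56.3 CPM in the other regions. Pcdhac2, the C-type alpha gene that serotonin neurons rely on for axon tiling, held 34.6 ± 9.44 CPM in the PFC and had a log2 fold change of 0.43 ± 0.11 there (edgeR adjusted p = 0.00173). In C24, SC and CS mice its mean was highest in the vHipp. It took a near constant share of alpha counts, between 47.9% and 51.8% in the 6 regions, unlike the C-type gamma genes. The alpha genes next to the start of the cluster, Pcdha1, Pcdha2 and Pcdha3, were the 3 of 12 called higher in the VTA. That count is no larger than the 32.7% of all genes called higher there.

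**Figure D3:**
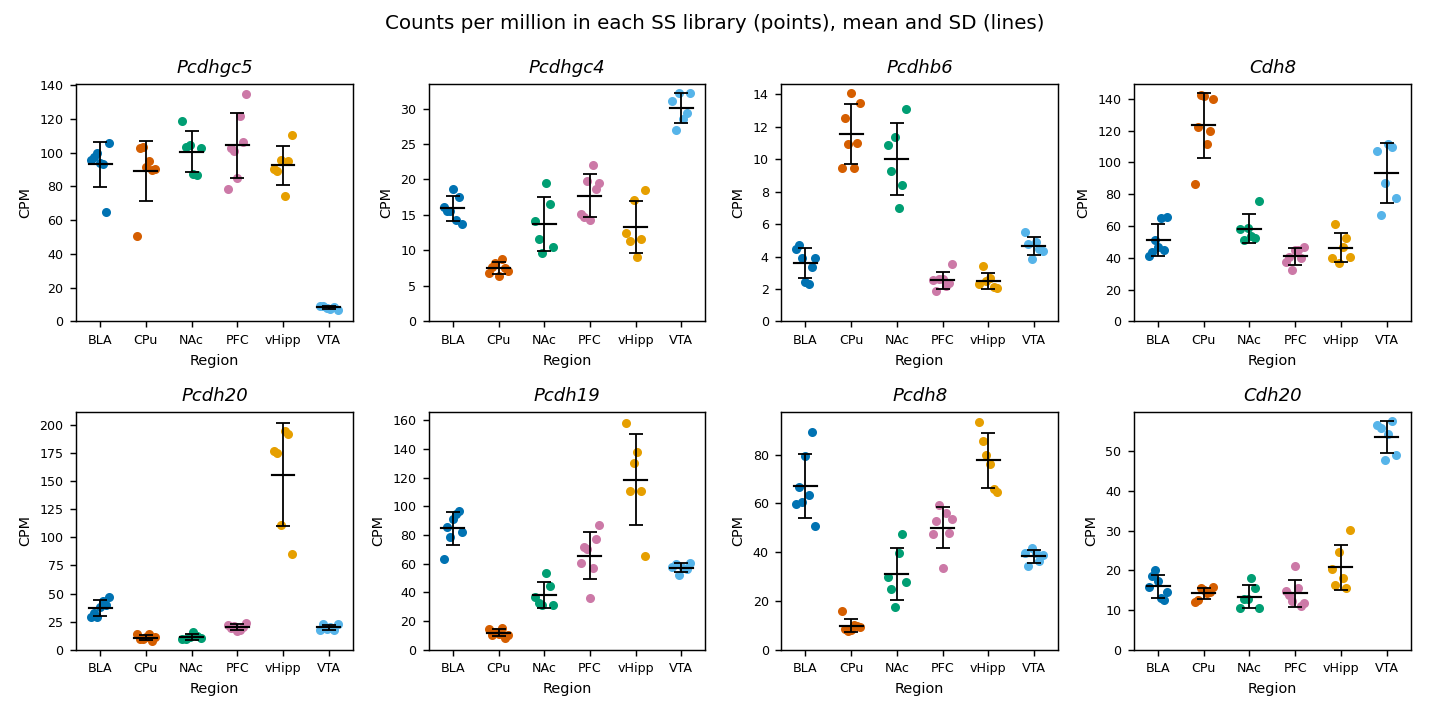
CPM of 8 members in each SS library (points) by region, with the mean and SD as lines, on axes from 0. Pcdhgc5 lies under 10 CPM in all VTA libraries, Pcdhgc4 and Cdh20 are highest in the VTA, Pcdhb6 is high in the CPu and NAc, Cdh8 is highest in the CPu, and Pcdh20, Pcdh19 and Pcdh8 are low in the CPu.

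Non-clustered protocadherins were mostly higher in the BLA and PFC and lower in the CPu. In the BLA 8 of 11 were higher and 0 lower (median log2 fold change 0.53), in the PFC 7 were higher and 2 lower, and in the CPu 1 was higher and 8 lower (median -0.86). Pcdh20 (chromosome 14, 88464743 to 88471396, promoter above) had vHipp libraries at 177.3, 175.6, 111.1, 194.8, 191.8 and 85.3 CPM. No library of another region exceeded 47.1 CPM, a BLA library, and the CPu and NAc held 7.60 to 15.3 CPM. Its log2 fold change in the vHipp was 3.13 ± 0.10 (edgeR adjusted p = 3.2e-25) and 3.22 in the other mice, and it was -1.41 ± 0.14 in the NAc.

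Pcdh19, an X-linked gene whose loss in a mosaic causes epilepsy in females, was low in the CPu, with libraries at 14.2, 10.3, 12.6, 10.8, 15.2, 8.30 and 10.3 CPM. The lowest library elsewhere held 30.95 CPM. Its log2 fold change was -2.53 ± 0.15 in the CPu (edgeR adjusted p = 1.77e-17) and 1.47 ± 0.12 in the vHipp, where the libraries held 65.2 to 158 CPM with a median of 120.2. Pcdh8 (arcadlin), a protocadherin induced by synaptic activity that drives the uptake of N-cadherin, had CPu libraries at 16.0, 8.57, 7.48, 7.98, 10.1, 9.90 and 9.22 CPM, below the 17.5 CPM of the lowest library elsewhere. Its log2 fold change in the CPu was -2.32 ± 0.15 (adjusted p = 1.62e-16). In SS mice the order of the regional means was the same for Pcdh8 and Pcdh19, the vHipp highest, then the BLA, PFC, VTA, NAc and CPu, although libraries of neighbours in that order overlapped except between the NAc and the CPu. In S24, C24 and SC mice Pcdh8 was highest in the BLA, while Pcdh19 was highest in the vHipp in all 6 conditions.

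Pcdh18 held 21.1 to 24.3 CPM in the VTA with a median of 23.0, above the 20.4 CPM of the highest other library (log2 fold change 1.55 ± 0.10, edgeR adjusted p = 6.06e-17). In S24 mice its mean in the VTA, 19.03 ± 2.95 CPM (SD), was close to the 18.14 ± 2.82 CPM of the BLA. Pcdh1 was lowest in the VTA at 97.9 ± 6.06 CPM (-1.50 ± 0.11, adjusted p = 4.26e-15) and highest in the vHipp at 375 ± 79.1 CPM (0.85 ± 0.09). Pcdh9 was highest in the VTA at 182.7 ± 22.4 CPM (0.98 ± 0.09, adjusted p = 1.7e-12). Pcdh10 was lowest in the vHipp at 96.2 ± 14.2 CPM (-1.44 ± 0.11, adjusted p = 2.12e-14) and highest in the NAc at 314 ± 32.0 CPM.

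Type II cadherins mark divisions of the developing brain, and their members went in several directions. In the VTA 6 of 12 were higher and 1 lower (32.7% and 35.1% of all genes), and in the PFC 6 and 3 (22.8% and 19.8%). In the NAc the counts were 1 and 7 (22.6% and 21.5%) and in the vHipp 3 and 7 (25.8% and 22%). They were 5 and 6 in the CPu (27.9% and 29.3%) and 4 and 5 in the BLA (18.3% and 12.1%). The count higher in the vHipp and that lower in the PFC were near these shares. Cdh20 held 56.6, 55.8, 47.9, 54.3, 57.5 and 49.2 CPM in the VTA, and at most 30.2 CPM, in a vHipp library, elsewhere. This was a log2 fold change of 1.76 ± 0.10 (edgeR adjusted p = 1.05e-18). Cdh18 held 30.8 to 37.0 CPM in the VTA with a median of 31.5, just above the 30.4 CPM of the highest other library (1.46 ± 0.10, adjusted p = 1.2e-15).

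Cdh24 was highest in the VTA at 12.02 ± 2.54 CPM and lowest in the CPu at 2.54 ± 0.349 CPM, with log2 fold changes of 1.04 ± 0.17 and -1.62 ± 0.20 (edgeR adjusted p = 1.05e-06 and 8.05e-09). Its VTA libraries, at 9.01 to 15.8 CPM, overlapped those of the BLA, PFC and vHipp. Cdh19, a cadherin of glial lineages, held 28.5 ± 3.40 CPM in the VTA (1.28 ± 0.13, adjusted p = 1.49e-11). Cdh24 and Cdh19 were singled out after their values were seen. The 8 oligodendrocyte markers, all detected, summed to 16210 to 19610 CPM in the VTA of SS mice, above the medians of 1801 to 7071 CPM and the highest single library, 15570 CPM, of the other regions. The part of these cells in the VTA values of Cdh19, Cdh20, Pcdh9 and the other members was not tested.

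Cdh8, a cadherin of synapses between cortex and striatum, was highest in the CPu, with libraries at 86.2, 122.2, 142.5, 141.7, 111.4, 120.0 and 140.2 CPM. They overlapped only the VTA, where the highest library held 112 CPM and the mean was 93.3 CPM. The log2 fold change in the CPu was 1.16 ± 0.09 (edgeR adjusted p = 1.06e-13). Between the 2 striatal regions Cdh8 and Cdh7 were ordered in opposite ways, a difference that was not tested on its own. Cdh7 held 45.9 to 59.3 CPM in the NAc with a median of 50.5, above the 43.2 CPM of the highest library elsewhere (1.31 ± 0.11, adjusted p = 9.52e-13), while the NAc mean of Cdh8 was 58.2 CPM. In the vHipp Cdh7 held 4.999 to 7.85 CPM, below all other libraries (-2.23 ± 0.15, adjusted p = 6.28e-16).

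Cdh9, which in the hippocampus joins mossy fibre synapses, was high in the vHipp and the BLA. It held 27.7 to 62.4 CPM with a median of 48.8 in the vHipp (log2 fold change 1.26 ± 0.13, edgeR adjusted p = 2.44e-10), and 32.8 to 68.1 CPM with a median of 41.4 in the BLA (1.26 ± 0.13). The VTA held 6.03 to 10.5 CPM (-1.80 ± 0.17, adjusted p = 5.93e-12). In S24 mice the CPu mean of Cdh9, 34.5 ± 4.71 CPM (SD), was near the 38.3 ± 10.6 CPM of the vHipp, with 45.9 ± 11.1 CPM in the BLA. Cdh12 was low in the BLA at 3.002 ± 0.804 CPM and in the NAc at 2.53 ± 0.569 CPM, with log2 fold changes of -1.02 ± 0.16 and -1.31 ± 0.17, and these 2 groups overlapped each other.

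Of the type I cadherins, Cdh4 was high in the BLA and the NAc. Its BLA libraries held 64.7, 71.6, 66.7, 75.7, 64.2, 84.8 and 67.2 CPM, its NAc libraries 51.7 to 68.0 CPM, and no library of the other 4 regions exceeded 42.9 CPM. The BLA and NAc libraries overlapped. The log2 fold change was 1.26 ± 0.10 in the BLA (edgeR adjusted p = 1.68e-13) and 0.96 ± 0.10 in the NAc (adjusted p = 6.94e-10). Cdh15 held 4.54 to 6.28 CPM in the NAc with a median of 5.57 (1.09 ± 0.13, adjusted p = 7.52e-09). Cdh2 differed less, from 60.4 ± 6.45 CPM in the CPu to 111.3 ± 16.4 CPM in the PFC.

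Of the other cadherins, Cdh23, known for the tip links of inner ear hair cells, held 4.86 to 11.5 CPM in the VTA (log2 fold change 1.94 ± 0.17, edgeR adjusted p = 8.02e-13) and 3.69 to 10.99 CPM in the BLA (1.60 ± 0.17, adjusted p = 9.39e-10). The 2 regions overlapped each other. Cdh13 was highest in the PFC at 202 ± 47.8 CPM (0.98 ± 0.12, adjusted p = 3.05e-09) and lowest in the vHipp at 70.0 ± 22.5 CPM.

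Cdh1 and Cdh3, the E- and P-cadherins of epithelia, were high in a few libraries, most of which also held markers of the meninges or the choroid plexus. In the vHipp of SS mice Cdh1 was at 19.5, 0.136, 3.33, 0.555, 0.150 and 0.1001 CPM. The library at 19.5 CPM held 988 CPM of summed leptomeningeal fibroblast markers and the one at 3.33 CPM held 380.4, against 75.5 to 199.6 CPM in the other 4 libraries. The log2 fold change of Cdh1 was 5.13 ± 0.52 with all SS libraries, 2.97 ± 0.47 without the highest library (edgeR adjusted p = 2.05e-06), and 1.79 in the other mice. The fit without the highest library still held the one at 3.33 CPM, beside the other 4 at 0.1001 to 0.555 CPM. The highest Cdh1 level of the study, 29.5 CPM in a VTA library of C24, came with 529.8 CPM of these markers. A BLA library of CC at 2.39 CPM of Cdh1 held only 80.9 CPM of them, within the range of its region, and 3 vHipp libraries with 621.5 to 828 CPM held at most 1.37 CPM of Cdh1. Cdh3 exceeded 1 CPM in 5 libraries, at 2.28, 4.25, 6.10, 8.98 and 11.4 CPM, and summed choroid plexus and ependymal markers were 5037, 9909, 17470, 21040 and 18470 CPM there. In the libraries with Cdh1 up to 2 CPM and Cdh3 up to 1 CPM, those markers reached at most 1257 CPM. Without the libraries above 2 CPM of Cdh1 or 1 CPM of Cdh3, the highest regional mean in S24 mice was 0.222 CPM for Cdh3, below the threshold for members, and 0.522 CPM for Cdh1. The part of these tissues in the levels of Cdh1 and Cdh3 was not tested.

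Partner genes came from lists chosen with earlier results known, and their counts are to be read against the shares of all genes called, such as 32.7% higher and 35.1% lower in the VTA. In the CPu these shares were 27.9% and 29.3%, in the NAc 22.6% and 21.5%, in the PFC 22.8% and 19.8%, and in the vHipp 25.8% and 22%. Of 13 cytoplasmic partners and sheddases of protocadherins, 10 were lower and 0 higher in the VTA, and 7 were higher and 1 lower in both the CPu and the PFC. Ptk2b, the kinase Pyk2 that alpha and gamma protocadherins bind and inhibit, held 9.39 ± 1.17 CPM in the VTA and a mean of 665 CPM over the other regions (log2 fold change -6.13 ± 0.15, edgeR adjusted p = 2.88e-30). Wasf1, a subunit of the WAVE complex that remodels actin at protocadherin tails, was at 55.5 ± 2.93 CPM in the VTA against 268 CPM (-2.27 ± 0.08, adjusted p = 7.98e-25). Ptk2b was called higher in each of the other 5 regions, as Pcdhgc5 was.

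Of 17 regulators of the clustered genes, such as CTCF and cohesin, which set promoter choice, 10 were higher and 2 lower in the CPu, 8 were higher and 0 lower in the NAc, and 1 was higher and 12 lower in the VTA. Tet3, an enzyme that oxidises methylated DNA, was at 42.1 ± 3.67 CPM in the VTA against 85.1 CPM (log2 fold change -1.02 ± 0.08, edgeR adjusted p = 3e-14). Of 13 catenins, 9 were higher and 2 lower in the PFC, and 5 were higher and 7 lower in the VTA, where the higher count is near the share of all genes. Ctnna3 was at 5.11 ± 0.684 CPM in the VTA (1.39 ± 0.15, adjusted p = 6.52e-11).

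Of 19 tested genes of the wider cadherin superfamily, 11 were lower and 5 higher in the VTA. Ret, a receptor with cadherin-like domains that dopamine neurons express, was at 713 ± 150.8 CPM there, against 5.90 CPM over the other regions (log2 fold change 7.09 ± 0.10, edgeR adjusted p = 3.99e-39). Fat4 was at 55.5 ± 17.2 CPM in the vHipp (2.11 ± 0.10) and Dchs2, of the family of its ligands, at 32.2 ± 3.76 CPM in the NAc (1.97 ± 0.12). Of the 5 nectins, adhesion proteins that join cadherins through afadin, 4 were higher in the vHipp and 4 lower in both striatal regions. Nectin1 was at 71.6 ± 21.4 CPM in the vHipp (1.59 ± 0.12, adjusted p = 2.92e-14).

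The conditions asked whether cocaine self-administration, a cocaine injection or their order changed these genes. No member passed the threshold in any contrast. With edgeR in each region, 0 pairs of a member and a region were called in each of 6 contrasts. These set C24 against S24; CS, SC and CC each against SS; and CC against CS, and the last was the interaction, CC against CS minus SC against SS. In that order, the shares of all gene and region pairs called were 0.000983%, 0%, 0.00393%, 0%, 0% and 0.000983%. DESeq2 and limma voom within the regions called 0 as well. Over the 36 pairs of a contrast and a region, with 81 to 84 members tested in each, the most members with an unadjusted p under 0.05 were found in the vHipp for CS against SS (11 higher and 4 lower), where 14.8% of all genes had such a p.

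Over the 6 regions together, limma called 0 of 85 members in each contrast, beside 0.83% of all genes in C24 against S24, 0.0581% in CS against SS, 0.111% in SC against SS, 0.0317% in CC against SS, 0% in CC against CS and 0.0423% in the interaction. At an unadjusted p under 0.05, in the same order, 0, 2, 2, 2, 3 and 3 members were higher and 2, 1, 4, 3, 1 and 1 lower. The moderated F test found 0 members whose 6 regional effects differed, in any contrast. Median log2 fold changes of the members lay between -0.015 and 0.006, and those of all genes between -0.008 and 0.004.

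Most of these effects were under 0.1 on the log2 scale. Of the 57 members with a mean of at least 5 CPM, 53 lay within 0.1 of 0 on the log2 scale in C24 against S24, 51 in CS against SS, 48 in SC against SS, 46 in CC against SS and 48 in CC against CS, with median standard errors of 0.063 to 0.074. The interaction had a median standard error of 0.1 and 37 members within 0.1. The extremes in this set were Cdh9 at 0.26 in the interaction and Cdh24 at -0.20, also in the interaction.

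**Figure D4:**
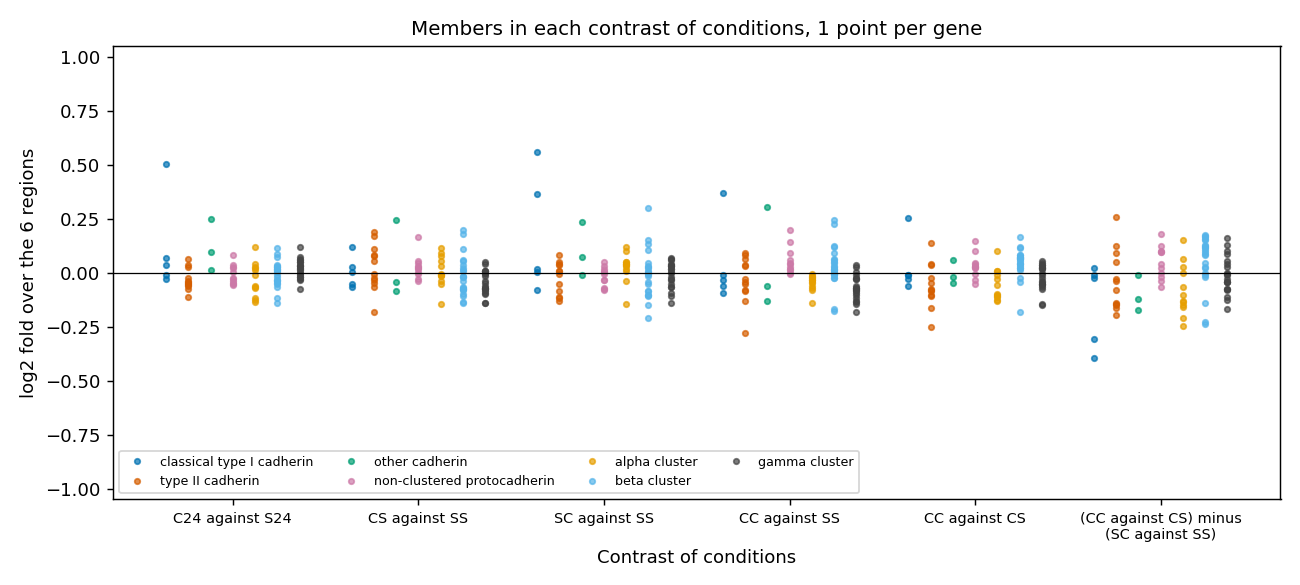
Log2 fold change over the 6 regions (limma fit with the mouse as a block) of each of the 85 members in the 6 contrasts of conditions, 1 point per gene, coloured by subgroup. The members with a mean of at least 5 CPM lie between -0.20 and 0.26, and no member passed an adjusted p of 0.05.

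The member with the smallest unadjusted p in each contrast was a beta gene, and none passed the adjustment over all genes in limma. Pcdhb11 in CC against SS had a log2 fold change of 0.22 ± 0.06 (unadjusted p = 0.000199, limma adjusted p = 0.312), and its mean was higher in CC in 6 of 6 regions, for example 7.19 ± 0.640 against 6.54 ± 1.26 CPM in the CPu and 4.68 ± 0.440 against 3.84 ± 0.598 CPM in the PFC (n = 7 each). With 1 mean per mouse it was 0.24 ± 0.07 (unadjusted p = 0.00254, limma adjusted p = 0.541). Pcdhb4 in SC against SS was -0.21 ± 0.06 (limma adjusted p = 0.304), with lower SC means in 6 of 6 regions, such as 2.78 ± 0.560 against 3.41 ± 0.254 CPM in the VTA. The groups overlapped in both cases. Pcdhb6 in C24 against S24 (-0.14 ± 0.06, limma adjusted p = 0.465), Pcdhb8 in CS against SS (0.20 ± 0.07, adjusted p = 0.957), Pcdhb9 in CC against CS (0.12 ± 0.05, adjusted p = 1) and Pcdhb17 in the interaction (0.17 ± 0.06, adjusted p = 1) were smaller or less certain.

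Within single regions the smallest unadjusted p was that of Cdh26 in CC against SS in the CPu, 0.708 ± 0.251 against 0.315 ± 0.0836 CPM (n = 7 each, log2 fold change 1.15 ± 0.29, unadjusted p = 0.00031, edgeR adjusted p = 0.734), a gene at the level threshold. The means of the other conditions were 0.629 (S24), 0.560 (C24), 0.522 (SC) and 0.540 CPM (CS), so SS was the lowest of the 6. Next came Pcdh11x, an X-linked protocadherin, in CS against SS in the vHipp, with 15.2 ± 5.15 against 8.48 ± 3.22 CPM (n = 6 each, 0.84 ± 0.25, unadjusted p = 0.00183, edgeR adjusted p = 0.246). The SC and CC means were 13.6 and 12.9 CPM and the S24 mean 12.9 CPM, so the SS group was the lowest of the 6 conditions in that region. In the other contrasts and regions the member with the smallest p had an edgeR adjusted p of 0.405 or more.

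Among the partner lists 1 gene passed the 6-region test. Ctnnd1, the p120 catenin that keeps classical cadherins at the membrane, had a log2 fold change of -0.23 ± 0.045 in SC against SS (limma adjusted p = 0.000944), with lower SC means in 6 of 6 regions, from 13.5 ± 0.984 to 10.5 ± 2.39 CPM in the BLA and from 16.7 ± 0.817 to 14.9 ± 1.94 CPM in the PFC. Without the 21 libraries with Gm20594, 19 of them from the 37 SC libraries, it was -0.09 (limma adjusted p = 0.817), so the call was lost without those libraries. What sets them apart was not tested. No other gene of the 5 lists was called over the 6 regions in any contrast, nor in a single region.

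Members also differed between mice of the same group. Among members with a mean of at least 1 CPM in a region, the SD of log2 CPM within groups had medians from 0.20 in the VTA to 0.34 in the BLA. The largest were those of Cdh1 in the vHipp (1.86) and VTA (1.61), Cdh6 in the vHipp (0.79, from 0.876 to 7.85 CPM over 39 libraries) and the BLA (0.71), and Cdh12 in the NAc (0.66). Next came Pcdhgb1 in the BLA (0.62) and Cdh23 in the vHipp (0.61). The value of Pcdhgb1 rests on 1 BLA library of CC, described next, that held 0.490 CPM against a mean of 5.83, and without it the SD was 0.24. Without that library the BLA median over members fell from 0.34 to 0.25, that of gamma members from 0.44 to 0.22 and that of alpha members from 0.44 to 0.28. Cdh10 had the smallest SD in the VTA, 0.08, and also in the CPu and PFC.

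The summed levels of the clusters also varied from library to library. Within conditions of a region the log2 SD of the summed level was 0.11 to 0.39 for alpha, 0.10 to 0.38 for gamma and 0.08 to 0.15 for beta. Without the BLA library of CC the BLA values were 0.17 for alpha, 0.14 for gamma and 0.15 for beta, and the highest of any region was then 0.27 for alpha and 0.20 for gamma. Pearson's r between alpha and gamma was 0.95 in the BLA (n = 38), 0.87 in the CPu (42), 0.86 in the NAc (39), 0.83 in the vHipp (39), 0.65 in the PFC (41) and 0.23 in the VTA (31), with Spearman's rho of 0.72, 0.83, 0.62, 0.76, 0.63 and 0.22. Between beta and gamma r was 0.42 in the BLA, 0.63 in the CPu, 0.37 in the NAc, 0.06 in the vHipp, 0.42 in the PFC and 0.61 in the VTA. These are descriptions, since the totals come from the same library and share its depth and scaling. A BLA library of CC held 10.2 CPM of alpha and 56.8 CPM of gamma genes with 116 CPM of beta genes, and a NAc library of CS held 17.1, 158 and 159 CPM. Without these 2 libraries r between alpha and gamma was 0.70 in the BLA (rho 0.57) and 0.61 in the NAc (rho 0.42), r between beta and gamma was 0.65 and 0.26 (rho 0.74 and 0.27), the SDs in the NAc were 0.15 for alpha, 0.13 for gamma and 0.13 for beta, and the count of members called stayed at 0 in the contrasts they enter. The cause of this covariation was not tested.

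**Figure D5:**
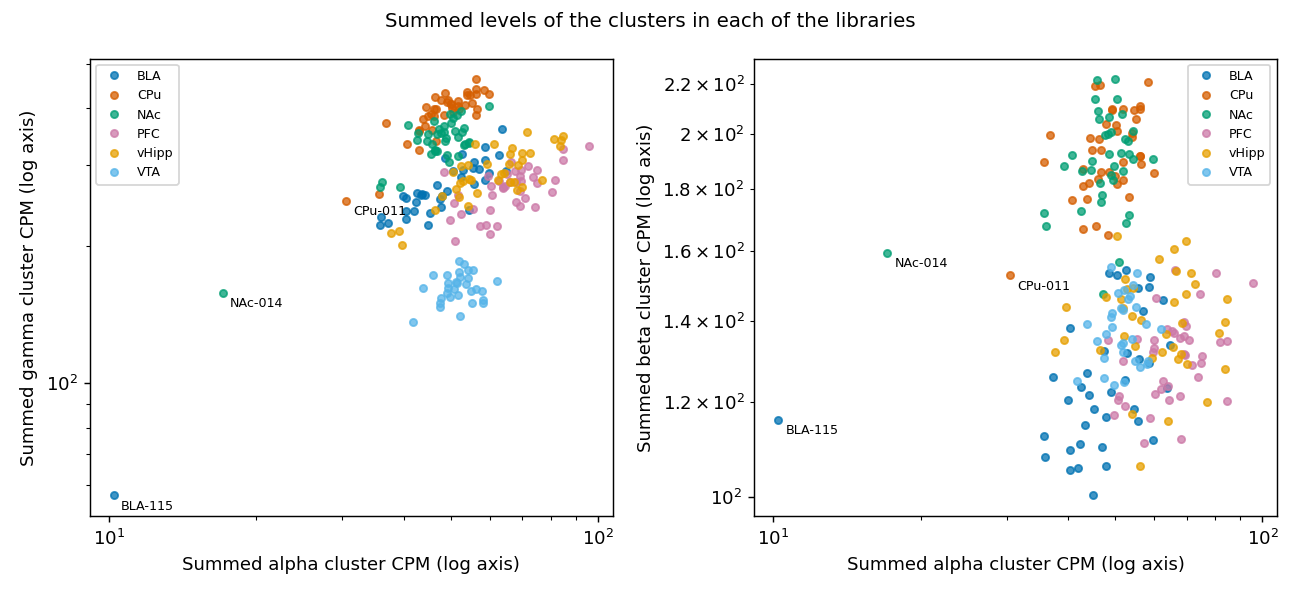
Summed CPM of the gamma genes (left) and beta genes (right) against that of the alpha genes in each of the 230 libraries, on log axes, coloured by region. The labelled BLA library lies low in alpha and gamma (10.2 and 56.8 CPM) and within its region in beta (116 CPM), and the VTA libraries form a separate band of low gamma.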

How the data were processed

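RNA of 230 tissue samples was measured, and the authors deposited raw counts of reads per Ensembl gene in 1 table. HTSeq, limma and mm10 are named in the submitters' processing notes. The aligner, annotation release, strand setting and treatment of reads that fit several genes are not given in the sources used here. Per the labels' protocols, RNA was depleted of ribosomal RNA, while their molecule field reads polyA.

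Symbols, exons and positions were taken from GENCODE M21. Levels are CPM computed from the deposited counts, with TMM factors over all 230 libraries. Regions were compared with edgeR 4.0.16 in R 4.3.3 (TMM, filterByExpr at a minimum count of 10 and total of 15, robust quasi-likelihood F test), and p-values were adjusted by Benjamini-Hochberg over all genes. Conditions were compared within each region with the same test. Over the 6 regions they were compared with limma 3.58.1 on voom weights with the mouse as a block, its consensus correlation taken from every 10th gene. The same-numbered libraries come from 1 mouse: their deviations from the group means had a median correlation of 0.0866 over 486 pairs, against -0.012 over 3228 pairs of different mice. DESeq2 1.42.0 was an alternative. The fits were run on simulated counts with the same spread setting for every gene, no effect of the mouse, and changes only in genes of higher count. That check did not cover members at low counts or the block for the mouse.

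Members, gene lists and the rule for named genes were chosen with earlier results of these data known. The rule named, per subgroup, the 3 members with the highest S24 level per kb. Per region it named up to 4 members with the largest positive and 2 with the largest negative log2 fold change, among those called with a log2 fold change of at least 1 in size. For conditions it named each member called, or else the one with the smallest unadjusted p. It also named the 3 members on each side of the level threshold and the 5 with the largest spread between libraries. Partner genes were named only where called, and those given for regions were picked from the called genes after their values were seen. Members outside the rule, such as Pcdhgc4, Cdh19 and Cdh24, were also singled out after their values were seen.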

Additional observations from a re-analysis of the deposited data

Results flagged for a closer look

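A library at the end of its group, with a gap to the nearest library wide for the range of the group, was found in 17 of 138 groups of values. Dixon's criterion for groups of 4 to 10 was used. The 138 include the cluster totals of the VTA in CS mice, a group of 3 libraries that could not be flagged. The criterion is passed in about 1 of 20 groups where values are independent and normally distributed. Alpha and gamma totals of a library varied together, so the count of 17 was not set against chance. Among members named for a regional difference, a CPu library of SS held 15.97 CPM of Pcdh8 against 10.12 in the nearest, and a NAc library of SS held 2.502 CPM of Pcdhb1 against 1.376. The vHipp library of SS with 19.54 CPM of Cdh1, against 3.33 in the nearest, is the one with 988 CPM of leptomeningeal markers. A VTA library of SS held 37 CPM of Cdh18 against 32.3.

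Summed alpha cluster levels were low in a CPu library of SS (30.53 CPM, nearest 45.68), a NAc library of CS (17.1, nearest 46.47), a NAc library of CC (35.74, nearest 45.84) and a VTA library of C24 (41.75, nearest 51.96). Summed beta cluster levels were low in a NAc library of SC (147.3 CPM, nearest 186.5), a PFC library of CC (119.1, nearest 131) and a vHipp library of C24 (117.2, nearest 139.5). Summed gamma cluster levels were low in a BLA library of SS (257.1 CPM, nearest 288.9), a BLA library of CC (56.81, nearest 229.1) and a CPu library of S24 (260.3, nearest 371.4). They were also low in a CPu library of CS (325.1 CPM, nearest 398), the NAc library of CS named for alpha (157.9, nearest 313.9) and the NAc library of CC named for alpha (269.2, nearest 332.2). The CPu library of SS with the low alpha level is also the one with the high Pcdh8 level.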

How the results depend on the processing

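Of 242 alternatives for 25 counts, 239 stayed within 1.5 times the count reported. The counts for conditions among them were 0 and stayed 0, which says little about the regional counts, and all that moved were regional counts. With SC, CS and CC libraries in place of SS, a larger set, 35 members were lower in the BLA, 24 in the NAc and 42 in the PFC, against 16, 14 and 27, while the shares of all genes rose to 23.5%, 32.2% and 31.5% from 12.1%, 21.5% and 19.8%. Of 196 alternatives for 37 named differences, all but 1 kept their direction and their call or lack of a call. The 37 include the member with the smallest unadjusted p in each contrast of conditions. None of these was called, so their part of the count says little about the calls between regions. Ctnnd1 in SC against SS lost its call without the Gm20594 libraries (-0.09, limma adjusted p = 0.817), and the cause was not tested. With the mouse as a replicate block in edgeR, members higher and lower numbered 17 and 16 in the BLA, 37 and 25 in the CPu, 37 and 14 in the NAc, 26 and 28 in the PFC, 16 and 31 in the vHipp and 25 and 33 in the VTA. In the 6-region fits the count of members called was 0 with and without the replicate block. Leaving out each library of a group of up to 5 in turn gave 0 calls throughout, from 0 to 0. The number of members was 84 with plain library totals, 83 at a minimum of 1 CPM, 83 from SS libraries and 83 without the S24 libraries that stood apart, the last chosen after seeing the data, as was leaving out the BLA and NAc libraries with low alpha and gamma totals, which lowered the spread between BLA libraries. No SS library stood apart by marker lists, so that alternative gave no separate value for regions. Low counts limit Pcdhb1, Pcdha8, Cdh1, Cdh3 and Cdh26.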
